A study of Sus scrofa with 16 samples.

Results

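ABRA, XIRP1, ANKRD1 and PDLIM3 are muscle genes whose proteins bind actin, titin or alpha-actinin, and they are followed here in the left ventricle of trained and untrained pigs. Members were all probe sets, that is, sets of short DNA probes against a transcript, whose gene symbol on the platform is one of these 4. That gave 5 probe sets of the 23935 tested: 1 each for ABRA (Entrez gene 100154546), XIRP1 (100134978) and PDLIM3 (414421), and 2 for ANKRD1 (396959). The genes were chosen by their difference between exercised and sedentary animals in these same arrays. That difference is therefore given below as a description, and no p-value for it is printed for the members. The number of members past the threshold is given only beside that of all probe sets, and nothing rests on it.

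The study compared 8 exercise-trained and 8 sedentary Yorkshire x Landrace pigs, aged 2 to 3 months, in a model of physiological cardiac hypertrophy. Each group held 4 females and 4 males, and the males were all castrated. Left ventricular muscle was taken 4 to 5 weeks after the protocol began, and total RNA of each animal went on 1 Affymetrix porcine array. No other genotype or treatment is named for either group, and the kind of exercise, its intensity and the time from the last bout to sampling are not given in the sources used here.

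In striated muscle, sarcomeres are joined end to end at the Z-disc, where alpha-actinin crosslinks actin filaments, and cardiomyocytes are joined at the intercalated disc. Both sites carry load and hold proteins that move to the nucleus or alter transcription when load changes. ABRA, also called STARS, binds actin and promotes the activity of serum response factor (SRF) through its actin-sensitive coactivators. XIRP1, or Xin, has repeats that bind actin filaments and lies mainly at the intercalated disc. ANKRD1, or CARP, binds titin in the I-band beside the Z-disc and also enters the nucleus; it is widely used as a marker of stretch and overload. PDLIM3, or ALP, binds alpha-actinin at the Z-disc through its PDZ domain. Of the 4 proteins, PDLIM3 is thus the one placed most strictly at the Z-disc.

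Values are log2 signals, and an increase of 1 stands for a doubling. The arrays parted into 2 batches by the signal of poly-A controls, which are foreign transcripts added to each RNA sample. Batch A held 11 arrays (exercised 1 to 6, sedentary 1 to 5) with control means from 7.22 to 8.20, and batch B held 5 (exercised 7 and 8, sedentary 6 to 8) with 5.82 to 6.31. The labels do not name these batches, and batch B had 0 exercised females. The batches also parted on the actin controls, in the signal at the tail end of the transcript less that at its other end. This gap was 2.39 to 3.02 in batch A and 1.34 to 1.88 in batch B. The same gap for GAPDH had means of 0.148 and 0.198. The cause of these differences was not tested. The Y-linked gene EIF1AY matched the labelled sex in all 16 animals, at 3.12 to 3.45 in females and 9.16 to 9.83 in castrated males. The 10 measured cardiomyocyte markers of 12 listed lay at or above the 98.1st percentile of mean level. Their mean level was 13.87 to 14.06 in exercised and 13.81 to 13.91 in sedentary animals, and 0 of the 10 passed the training test. Of 6 measured lymphocyte markers 2 were called higher in exercised animals, CD3G by 0.56 and CD79B by 0.26. These lay at the 37.2nd and 15.5th percentile of mean level, and over all genes 10.0% were called in either direction. CD3D, CD3E and CD8A had 0.19, 0.18 and 0.57, and CD4 had -0.37, none of them called. The mean level of the 6 was 5.35 to 5.94 in exercised against 4.86 to 5.62 in sedentary animals. The part of lymphocytes in the results below was not tested. Of the measured markers of skeletal and smooth muscle, fibroblasts, endothelium, macrophages, erythroid cells and adipocytes, 0 passed. In bulk tissue, fewer cells of a type and less RNA per cell cannot be told apart.

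ABRA, the activator of SRF, had the largest training difference of the 5 probe sets. Its signal in exercised animals was 9.16 at the lowest, 10.38 at the median and 10.64 at the highest. In sedentary animals these values were 10.18, 11.48 and 11.95. All sedentary animals but 1 lay above the highest exercised animal, and the exception was sedentary 4, which held the lowest sedentary value. Every exercised animal lay below the sedentary mean. The group means were 10.18 ± 0.54 and 11.26 ± 0.57 (SD, n = 8 per group), a difference of -1.08 (SE 0.266), or 2.11-fold lower in exercised animals. In order of the training difference, from the lowest up, ABRA took place 15 of 23935.

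XIRP1, the actin-binding protein of the intercalated disc, showed a similar pattern with somewhat more overlap. Exercised animals had 8.97 at the lowest, 9.87 at the median and 10.71 at the highest, and sedentary animals 9.53, 11.06 and 11.32. Of the 8 sedentary animals, 6 lay above the highest exercised animal, while sedentary 4 at 9.53 and sedentary 5 at 9.95 lay within the exercised range. All 8 exercised animals were below the sedentary mean. Means were 9.89 ± 0.59 and 10.78 ± 0.68 (SD, n = 8), which differ by -0.89 (SE 0.295), or 1.85-fold. The signal of XIRP1 also moved with the batch: it was higher in batch B than in batch A by 1.04 among exercised and by 0.66 among sedentary animals. Among the exercised, animals 7 and 8 of batch B had the 2 highest values, 10.71 and 10.63. The part of the batch in the spread of XIRP1 was not tested.

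ANKRD1, the titin-binding stretch marker, was read by 2 probe sets that gave unlike sizes. On the brighter probe set, at the 99.8th percentile of mean level, exercised animals had 13.07 at the lowest, 13.45 at the median and 13.97 at the highest. Sedentary animals had 13.38, 13.74 and 14.10. The groups overlapped over much of their range, with 4 of 8 exercised animals below the lowest sedentary animal and 2 above the sedentary mean. Means of 13.49 ± 0.33 and 13.77 ± 0.24 (SD, n = 8) differed by -0.28 (SE 0.132), or 1.21-fold. The dimmer probe set, at the 75.7th percentile, ran from 5.57 through a median of 7.75 to 8.56 in exercised and from 6.62 through 8.36 to 9.66 in sedentary animals. Its difference was -0.80 (SE 0.43), with SDs of 1.01 and 0.94. Both probe sets were lower on average in exercised animals, but on the dimmer one the lowest exercised value came from animal 8 and on the brighter one from animal 1. The highest signal on any array was 14.86, so the brighter probe set lay close to the top of the scale. Whether that narrows its differences was not tested.

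PDLIM3, the alpha-actinin partner, had a training difference of -0.77 (SE 0.227), or 1.71-fold, from means of 7.67 ± 0.65 and 8.44 ± 0.71 (SD, n = 8). Exercised animals ran from 6.89 through a median of 7.55 to 9.10, and sedentary animals from 7.38 through 8.63 to 9.17. The highest exercised value, 9.10 in exercised 8, stood far above the next, 7.86, and close to the highest sedentary value. Without exercised 8, the difference was -0.98. The low and high sedentary values belonged to different sexes, which are taken apart below.

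**Figure D1:**
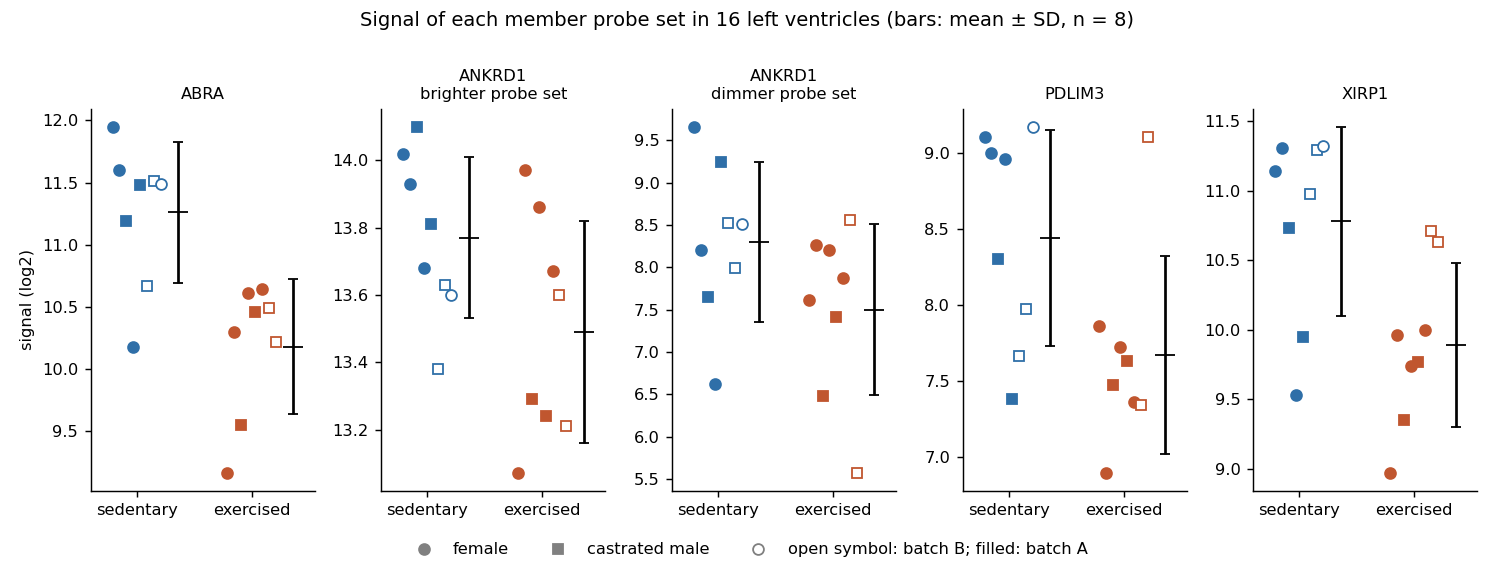
Log2 signal of the 5 probe sets (1 panel each, with its own vertical scale) in sedentary (blue) and exercised (red) animals, with circles for females, squares for castrated males, filled symbols for batch A and open symbols for batch B; black bars give the mean and SD of 8 animals. ABRA shows 7 of 8 sedentary animals above all exercised animals, and PDLIM3 shows 1 exercised animal at 9.10, among the sedentary females.

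In the fit across all probe sets (limma, adjusted p of 0.05), 13.4% were past the threshold in either direction and 6.88% were lower in exercised animals. Of the 5 member probe sets 2 were past it, ABRA and PDLIM3. Because the genes were picked on this contrast, this count is no test of them. With 1 array left out at a time, the differences ran from -1.27 to -0.91 for ABRA, from -0.98 to -0.68 for PDLIM3 and from -1.11 to -0.76 for XIRP1. For ANKRD1 they ran from -0.34 to -0.18 on the brighter and from -1.07 to -0.56 on the dimmer probe set.

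Within the batches the simple difference was below 0 for each of the 5 probe sets, though batch B held only 2 exercised and 3 sedentary animals and the sexes were not matched there. Taken as simple exercised minus sedentary means with the sexes together, the ABRA differences were -1.16 (A) and -0.87 (B). For XIRP1 they were -0.90 and -0.53, with both exercised animals of batch B below all 3 sedentary ones. The brighter ANKRD1 probe set had -0.39 and -0.13 and the dimmer one -0.63 and -1.27. PDLIM3 parted most, at -1.06 (A) and -0.05 (B), and both exercised animals of batch B were castrated males. Against only the 2 sedentary castrated males of batch B, its difference was 0.40, on the other side of 0. With the batch as a block the differences were -1.06 for ABRA, -0.78 for XIRP1 and -0.74 for PDLIM3. For ANKRD1 they were -0.30 and -0.79.

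The next comparison asked whether the training difference was alike in females and castrated males. This contrast is independent of the averaged training effect that chose the genes, so the members were tested on it. For PDLIM3 the sexes differed widely. Exercised females had 7.86, 6.89, 7.72 and 7.36, and sedentary females lay between 8.96 and 9.17, so that all 4 exercised lay below all 4 sedentary females by more than the spread of either group. Exercised castrated males had 7.47, 7.63, 7.34 and 9.10, and sedentary ones 8.30, 7.38, 7.66 and 7.97. Here the groups overlapped, and sedentary males were near the level of the exercised females.

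The PDLIM3 means were 7.45 ± 0.43 and 9.06 ± 0.10 in females (SD, n = 4), a difference of -1.60 (SE 0.32). In castrated males they were 7.89 ± 0.82 and 7.83 ± 0.40, a difference of 0.06 (SE 0.32). The difference between these effects was -1.66 (SE 0.453, unadjusted p = 0.00218), which put PDLIM3 at place 15 of 23935 by p-value. It did not pass over all probe sets (limma, adjusted p = 1.0). No probe set on the array did: 0% were called, and at an unadjusted p under 0.05 there were 621, or 2.59%. Without exercised 8, the castrated males had a difference of -0.35, and the contrast between the sexes was -1.26 (SE 0.3). Every exercised female was in batch A, and within batch A alone females differed by -1.57, from 4 exercised and 3 sedentary animals. Castrated males differed by -0.29 in batch A and by 0.40 in batch B, with 2 animals per group in each.

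ABRA was lower by about as much in both sexes, at -1.13 in females and -1.03 in castrated males (SE 0.376 each). Among the castrated males all 4 exercised animals lay below all 4 sedentary animals; among the females 1 of 4 did, because sedentary 4 was low at 10.18. XIRP1 had -1.16 in females and -0.62 in castrated males (SE 0.417 each). For ANKRD1 the order was the other way, with -0.17 and -0.39 on the brighter probe set (SE 0.187) and -0.26 and -1.34 on the dimmer one (SE 0.607). The contrasts between the sexes were -0.09 ± 0.532 for ABRA, -0.53 ± 0.589 for XIRP1, 0.22 ± 0.264 for the brighter and 1.08 ± 0.859 for the dimmer ANKRD1 probe set (± SE). None of them passed (limma, adjusted p = 1.0 for each), and their standard errors leave room for sex differences as large as the training differences themselves.

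**Figure D2:**
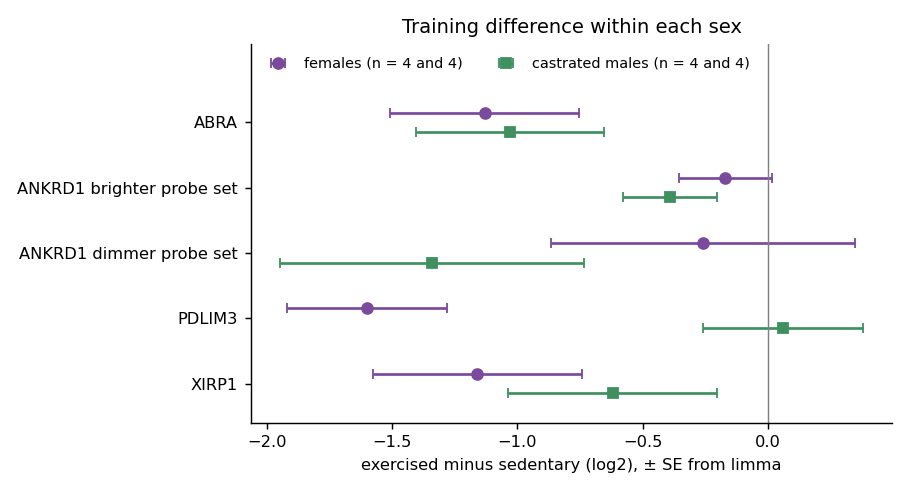
Training difference (exercised minus sedentary, log2) of the 5 probe sets in females (purple circles) and castrated males (green squares), with 4 animals per group and bars of 1 standard error from limma. PDLIM3 lies at -1.60 in females and 0.06 in castrated males, while ABRA lies near -1 in both.

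Averaged over training, no member differed between the sexes past the threshold. Females minus castrated males came to 0.40 for PDLIM3 (SE 0.227, adjusted p = 0.56, limma), from means of 8.26 and 7.86. ABRA had 0.04 (SE 0.266), XIRP1 -0.18 (SE 0.295), and ANKRD1 0.19 (SE 0.132) and 0.44 (SE 0.43). Adjusted p-values for these ran from 0.608 to 0.962. Over the array 0.0919% of probe sets were called for sex, and 0 of the 5 members reached an unadjusted p under 0.05.

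The relation among the 4 genes from animal to animal was taken within each training group, where the difference that chose them plays no part. The brightest probe set stood for each gene, and 12 relations (6 pairs in 2 groups) were computed. By Pearson's r, ABRA and XIRP1 had the highest correlation in both groups, though by rho ABRA and ANKRD1 were higher in exercised animals. It was 0.69 in the 8 exercised animals (Spearman's rho 0.50; exact permutation p = 0.0616 for r and 0.216 for rho; Benjamini-Hochberg adjusted 0.328 and 0.519). In the 8 sedentary animals it was 0.64 (rho 0.69; exact permutation p = 0.0679 and 0.0694; adjusted 0.328 and 0.385). Neither passed, and each rested most on the animal with the lowest ABRA of its group. In exercised animals r was 0.41 without animal 1 alone and 0.63 without animal 3 alone. In sedentary animals it was 0.16 without animal 4 alone but 0.76 without animal 6 alone. Without the 2 farthest from the ABRA median, r was -0.44 in exercised (without 1 and 3) and 0.31 in sedentary animals (without 4 and 6).

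The animals at the low end were shared only in part by ABRA, ANKRD1 and XIRP1. Exercised 1 had the lowest ABRA, ANKRD1 and XIRP1 of its group but the second highest PDLIM3, at 7.86. Exercised 3 had the second lowest ABRA and XIRP1, and sedentary 4 had the lowest ABRA and XIRP1 of its group. Both of these were 4th from the lowest for ANKRD1. Sedentary 6 had the second lowest ABRA and the lowest ANKRD1 of its group but was 4th from the lowest for XIRP1. ABRA and ANKRD1 correlated at 0.64 in exercised (rho 0.64; exact permutation p = 0.082 and 0.0962; adjusted 0.328 and 0.385) and 0.49 in sedentary animals (rho 0.33; exact permutation p = 0.224 and 0.428; adjusted 0.537 and 0.571). Without the 2 farthest animals these were 0.33 and 0.04. With the mean of both ANKRD1 probe sets they were 0.45 and 0.82, so that in sedentary animals this pair then stood above ABRA and XIRP1.

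The correlations of PDLIM3 with the other genes ran from -0.58 to 0.31. Its r with ANKRD1 was -0.58 in exercised animals (rho -0.71; exact permutation p = 0.11 and 0.0576; adjusted 0.329 and 0.385; -0.52 without the 2 farthest) and 0.31 in sedentary animals (rho 0.17; exact permutation p = 0.442 and 0.703; adjusted 0.776 and 0.703; 0.17 without the 2 farthest). With XIRP1 it was 0.23 in both groups (exact permutation p = 0.582 and 0.567; adjusted 0.776 for both), where rho was -0.33 in exercised and 0.57 in sedentary animals (exact permutation p = 0.428 and 0.151; adjusted 0.571 and 0.453). Without the 2 farthest animals r was -0.75 and -0.09, and without exercised 8 alone the exercised value was -0.56. With ABRA it was -0.14 in exercised and 0.13 in sedentary animals (rho -0.38 and 0.45; exact permutation p for r 0.702 and 0.746, adjusted 0.814 for both; r without the 2 farthest -0.44 and 0.45). The last pair, ANKRD1 and XIRP1, had 0.30 in exercised and 0.01 in sedentary animals (rho 0.24 and -0.21; exact permutation p for r 0.458 and 0.987, adjusted 0.776 and 0.987; r without the 2 farthest 0.55 and 0.15). Across the 12 relations, 0 passed after adjustment, for r or for rho. At an unadjusted p under 0.05 there were also 0.

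With each animal set against the mean of its own training and sex group, all 16 could be used together. ABRA and XIRP1 then correlated at 0.68 (rho 0.55; exact permutation within the training and sex groups, p = 0.0187 and 0.0351; adjusted over 6 pairs 0.0906 and 0.21). ABRA and ANKRD1 correlated at 0.62 (rho 0.49; exact permutation p = 0.0302 and 0.0824; adjusted 0.0906 and 0.247). Without the 2 animals farthest from the ABRA median these were 0.36 and 0.43. ANKRD1 and XIRP1 had 0.30 over all 16 but 0.71 over the 11 animals of batch A (rho 0.64; exact permutation p = 0.0365 and 0.0729; adjusted 0.109 and 0.224). In batch A, ABRA had 0.84 with XIRP1 (rho 0.65; exact permutation p = 0.0365 and 0.0747; adjusted 0.109 and 0.224) and 0.68 with ANKRD1 (rho 0.35; exact permutation p = 0.0799 and 0.335; adjusted 0.16 and 0.67). The 3 pairs of ABRA, ANKRD1 and XIRP1 thus had r of 0.68 to 0.84 in batch A, none past the adjusted threshold. Without the 2 farthest animals they had 0.48 (ABRA and XIRP1), 0.06 (ABRA and ANKRD1) and 0.74 (ANKRD1 and XIRP1). The 3 pairs with PDLIM3 had -0.27 to 0.01 in batch A, and these too moved when the 2 farthest animals were left out. ANKRD1 and PDLIM3 then went from -0.27 to 0.72, and ABRA and PDLIM3 from -0.19 to 0.08. PDLIM3 and XIRP1 stayed at 0.01. Batch B, with 5 animals, was too small for a correlation.

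**Figure D3:**
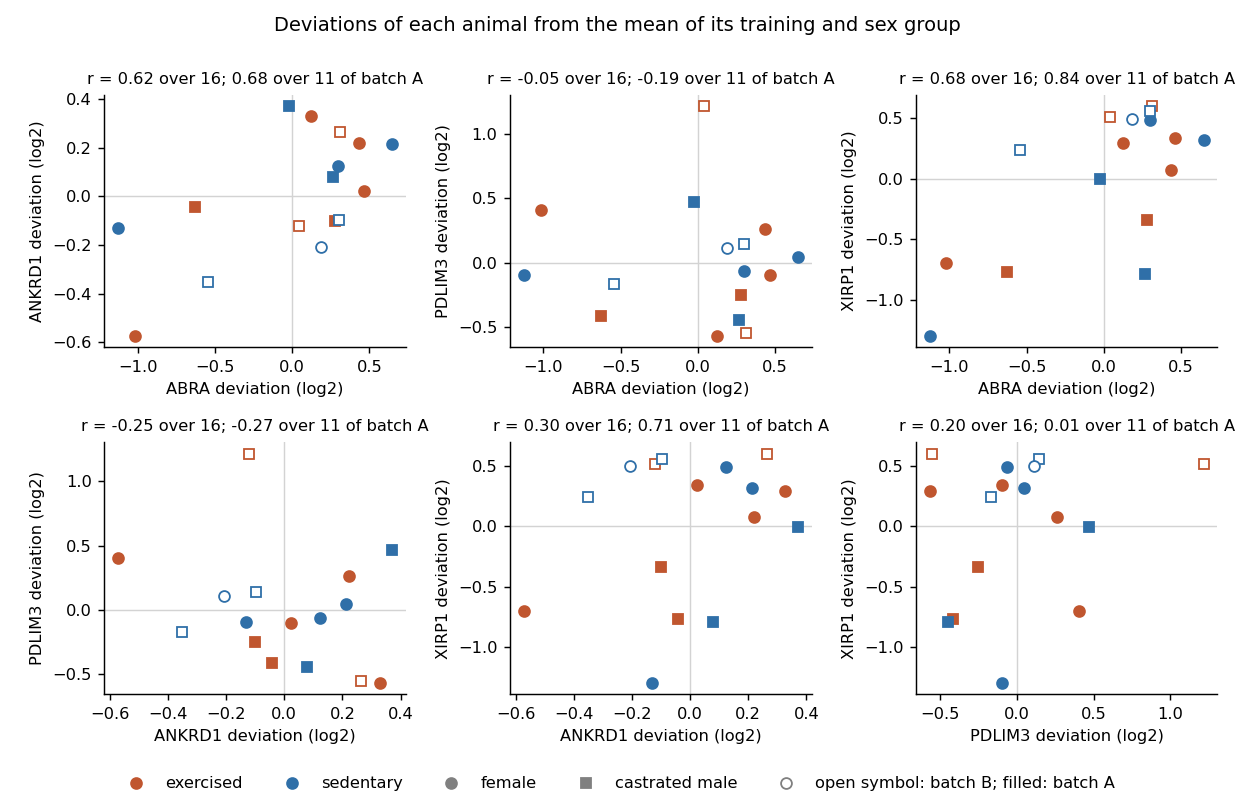
Deviation of each animal from the mean of its training and sex group (log2) for each pair of genes, with exercised animals in red, sedentary in blue, circles for females, squares for castrated males and open symbols for batch B. Panel titles give Pearson's r over the 16 animals shown and r from deviations taken anew among the 11 animals of batch A; ABRA and XIRP1 have 0.68 and 0.84, and the open symbols lie high for XIRP1.

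The 2 ANKRD1 probe sets themselves followed each other only loosely. Their r was 0.65 in exercised animals (rho 0.69; exact permutation p = 0.0815 and 0.0694) and 0.14 in sedentary animals (rho -0.05; exact permutation p = 0.739 and 0.935). After adjustment over the 8 relations computed with the dimmer probe set, the p-values for r were 0.217 and 0.845. Results on ANKRD1 therefore differ with the probe set read. For example, the dimmer one had r = -0.78 with PDLIM3 in exercised animals (rho -0.69; exact permutation p = 0.0303 and 0.0694; adjusted 0.123 and 0.278). With ABRA the dimmer one had 0.75 in sedentary animals (rho 0.48; exact permutation p = 0.0308 and 0.243; adjusted 0.123 and 0.486), where the brighter one had 0.49. With PDLIM3 the dimmer one had r = -0.17 in sedentary animals (rho -0.02; exact permutation p = 0.69 and 0.977; adjusted 0.845 and 0.977).

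Genes with the pattern most like each member were looked up among 4926 other symbols with signal above the median. Each symbol was read on the probe set most like the member, so symbols with several probe sets had more chances of a high value. Likeness was the correlation of deviations over the 16 animals, given as a description with no test. The 5 most like ABRA were the co-chaperone gene DNAJB4 (0.88), the adaptor gene SHC1 (0.84), the ubiquitin ligase gene MARCH6 (0.82), alpha-actinin 2, ACTN2 (0.76), and the scaffold gene RACK1 (0.74). XIRP1 was 19th in that order and ANKRD1 35th, while PDLIM3 was 3039th. With the batch left in, the other orders placed the members farther apart. In that of XIRP1, ABRA was 285th, ANKRD1 1578th and PDLIM3 2065th. In that of ANKRD1, ABRA was 90th, XIRP1 1034th and PDLIM3 3681st. In that of PDLIM3, XIRP1 was 1643rd, ABRA 3147th and ANKRD1 4149th. With the batch removed from the deviations, XIRP1 was 6th in the order of ABRA, at 0.82, and ABRA 9th in that of XIRP1. ANKRD1 was then 79th in the order of XIRP1, and XIRP1 73rd in that of ANKRD1, both at 0.67. ANKRD1 was 52nd in the order of ABRA, and ABRA 68th in that of ANKRD1. PDLIM3 stayed far off, at 3070th, 3542nd and 2362nd in the orders of ABRA, ANKRD1 and XIRP1. For ANKRD1 the list was TNFRSF12A, the receptor of the cytokine TWEAK (0.91), the HSP70 family gene HSPA2 (0.86), the clock regulator gene CIPC (0.85), the survival gene MCL1 (0.85) and NAMPT, an enzyme of NAD synthesis (0.82). Removing the batch left each of the 10 values in the lists of ABRA and ANKRD1 at 0.75 or above.

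XIRP1 was most like GRAMD2B, a membrane lipid-binding protein gene (0.94), PPP1R15A, a phosphatase subunit of the stress response (0.92), PRKAR2A, a regulatory subunit of protein kinase A (0.88), the integrin gene ITGA5 (0.88) and the actin-binding gene ABLIM1 (0.87). These shared the batch with XIRP1, and with it removed they were 0.78 to 0.90. PDLIM3 was most like the fibrillar collagen gene COL3A1 (0.85), the actin regulator gene WASF2 (0.83), the acetylcholine receptor gene CHRNA1 (0.78), ROPN1L (0.78) and the growth factor receptor gene IGF1R (0.78). With the batch removed these were 0.77 to 0.85. No symbol stood in more than 1 of these 4 lists.

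The quickly induced transcription factor genes NR4A3, FOS, EGR1 and ATF3 were also set against the members. With ABRA they had 0.65, 0.58, 0.56 and 0.56, and with the brighter ANKRD1 probe set 0.51, 0.50, 0.58 and 0.58. With PDLIM3 they had -0.17, 0.18, 0.08 and -0.42. For XIRP1 the values were 0.62, 0.68, 0.66 and 0.36. Removing the batch gave 0.66, 0.59, 0.56 and 0.57 with ABRA and 0.69, 0.69, 0.74 and 0.58 with ANKRD1. It gave 0.56, 0.62, 0.64 and 0.53 with XIRP1, and -0.28, 0.09, -0.04 and -0.41 with PDLIM3. With the batch left in, similar values stood at unlike places, since many symbols were close to XIRP1. In its order of likeness the 4 genes were at places 547, 301, 351 and 1489. In that of ABRA they were at 27, 60, 77 and 79, and in that of ANKRD1 at 258, 296, 141 and 144. The natriuretic peptide gene NPPB had 0.52 with ANKRD1 and 0.14 with ABRA, and NPPA had -0.53 and -0.29. With ABRA, MYC, the calcineurin regulator gene RCAN1 and the transcription factor gene TEAD1 had 0.13, -0.03 and 0.14. The same genes had 0.12, 0.49 and -0.32 with ANKRD1, 0.49, -0.04 and 0.44 with XIRP1, and 0.39, -0.04 and -0.18 with PDLIM3. Once the batch was removed, TEAD1 had 0.06 with XIRP1 and -0.47 with PDLIM3. SRF itself was not analysed here, since no tested probe set carried its symbol alone. In the training test NR4A3 fell by 2.01, NPPA by 0.78 and RCAN1 by 0.47 (limma adjusted p = 0.00162, 0.0457 and 0.0454), while ATF3 at -1.63, MYC at -0.56, NPPB at -0.36 and TEAD1 at -0.14 did not pass (adjusted p = 0.0679, 0.188, 0.683 and 0.334).

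Other genes of the same structures and pathway were counted in the same training test. Each was read on its brightest probe set, and over all 6765 genes 10.0% were called with a median difference of 0.01. Of 28 measured Z-disc genes, 0 rose, 1 fell and 27 did not pass, with a median of 0.01. The one that fell was MYOZ1, a calcineurin-binding Z-disc protein mainly of fast skeletal muscle, at 4.71 ± 0.19 against 5.30 ± 0.17 (SD, n = 8; log2 -0.59, limma adjusted p = 0.000612). Its signal lay at the 32nd percentile of mean level. The 7 measured skeletal muscle markers, of which 0 passed, lay between the 14.2nd and the 99.9th percentile, with a median at the 37.1st. The marker at the 99.9th percentile was also counted among those of cardiomyocytes. Training differences of the 7 ran from -0.83 to 0.42.

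Among 19 measured intercalated disc genes, 0 rose, 2 fell and 17 did not pass, and 16 of the 19 values were below 0 (median -0.09). LIMS1, the adaptor PINCH at integrin adhesions, fell by 0.73 (SE 0.105, limma adjusted p = 0.000387) to 5.26 ± 0.21 from 5.99 ± 0.20 (n = 8). CTNND1, a catenin that binds cadherins, fell by 0.23 (SE 0.063, limma adjusted p = 0.0232) at the 25.4th percentile of level. XIRP2, the second Xin gene, had 0.35 (adjusted p = 0.406, limma), on the other side of 0 from XIRP1.

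Of 32 measured genes of SRF and actin signalling, the pathway in which ABRA acts, 0 rose, 1 fell and 31 did not pass (median -0.04). MCL1 fell by 0.28 (SE 0.0844, limma adjusted p = 0.0393), to 10.64 ± 0.17 from 10.92 ± 0.15 (n = 8). It was called in 6 of the 16 fits that left out 1 array. The lowest values of the list were those of FOS at -0.95, the matrix protein gene CYR61 at -0.91 and EGR1 at -0.89, with adjusted p-values of 0.352, 0.0561 and 0.255 (limma). The share called was 3.57%, 10.5% and 3.12% in the 3 lists, against the 10.0% of all genes. These shares were not matched for signal level. Over all probe sets 3197 were called, but only 631 once those up to the 40th percentile of mean level were dropped. All measured Z-disc genes but MYOZ1 lay above that percentile. Whether the lists differ from other genes of like level was not tested.

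**Figure D4:**
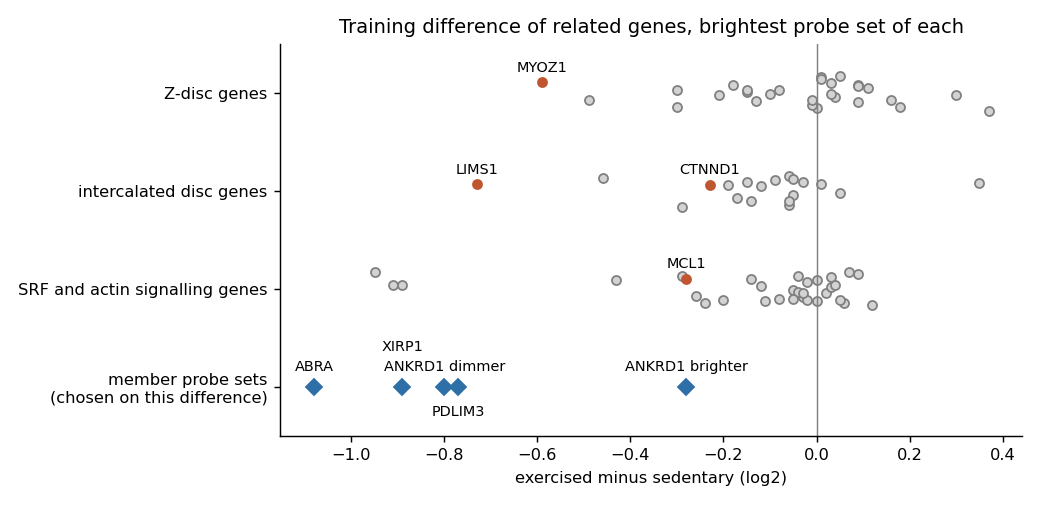
Training difference (exercised minus sedentary, log2) of each measured gene of the 3 related lists, with called genes in red and named and the others in grey; blue diamonds are the 5 member probe sets, which were chosen on this difference. Points are spread vertically only to keep them apart; MYOZ1, LIMS1, CTNND1 and MCL1 are the called genes, all below 0.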

How the data were processed

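The authors deposited 1 table of log2 signals per probe set for 16 one-channel arrays, 1 for each animal. How probes were summarised and arrays normalized is not stated in the labels. The log2 scale was read from the values, 2.87 to 14.86, with a median of 6.236 on each array. Controls (188 probe sets) were left out. Gene symbols are those of the array's annotation table, some of them possibly outdated; 10069 probe sets had 1 symbol, 198 several and 13668 none. With limma 3.58.1 in R 4.3.3, all 16 arrays were fitted with 4 means, 1 per training and sex group (12 residual and 3.5 prior degrees of freedom). All tests are two-sided; p-values were adjusted by Benjamini-Hochberg over 23935 probe sets and a threshold of 0.05. The fit was tested on simulated data with 200 changed probe sets. Correlations used exact permutation over all pairings, two-sided, and for deviations all arrangements within training and sex groups. Batches were parted at the largest gap in the mean of 42 poly-A control probe sets. The text names all members, list genes past the threshold (at most 8 per list, otherwise the 3 with the smallest p), the 5 symbols most like each member, and set comparators; CD3G, CD79B, XIRP2, FOS, CYR61 and EGR1 were named from the lists after their values were seen. Members and lists were chosen with earlier results of these data known. The alternatives were leaving out each array, batch A alone, the batch or the replicate number as a block, array weights, no sex term, other normalizations and probe set choices, and a filter on dim probe sets. The number of arrays limits precision. Python 3.11.15 and matplotlib 3.10.9 drew the plots.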

Additional observations from a re-analysis of the deposited data

Results flagged for a closer look

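Of 30 sets of animals examined (5 probe sets in each training group, and in each training and sex group), 3 held a value far from the rest of its group; chance alone marks about 1 group in 20. PDLIM3 in exercised 8, at 9.10, stood apart from the other 7 exercised animals, of which the nearest had 7.86. The same value stood apart among the 4 exercised castrated males, where the nearest was 7.63. XIRP1 in sedentary 4, at 9.53, stood apart among the 4 sedentary females, where the nearest was 11.14. Exercised 8 also had the lowest signal of the dimmer ANKRD1 probe set, 5.57, and it is in batch B; sedentary 4 is in batch A and had the lowest ABRA of its group.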

How the results depend on the processing

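All 5 member probe sets kept a training difference below 0 under each of the 25 alternatives. The genes were chosen on this difference in the same arrays, so its sign is a description and no test. Several alternatives also barely move it, and ABRA stayed at -1.08 with other normalizations, no sex term and the replicate block. Ranges were -1.27 to -0.91 for ABRA, -1.11 to -0.76 for XIRP1, -0.98 to -0.68 for PDLIM3, -0.46 to -0.18 for the brighter and -1.07 to -0.56 for the dimmer ANKRD1 probe set. Dropping probe sets up to the 40th percentile of level cut the calls by a larger share than the probe sets tested, to 631 from 3197. With this filter 1 member was called, with 0 Z-disc, 1 intercalated disc and 0 SRF and actin signalling genes. In batch A alone 2456 probe sets were called, with 1 member, 2 Z-disc, 1 intercalated disc and 3 SRF and actin signalling genes. With the batch as a block 3 Z-disc genes were called, with array weights 2, without a sex term 2 of SRF and actin signalling, and on the probe set with the smallest p also 2 of that list. Leaving out 1 array gave 2513 to 3108 called probe sets, with 1 to 3 called members. The lists then had 1 to 2 called Z-disc and 0 to 3 called SRF and actin signalling genes. The cause of these shifts was not tested. Replicate numbers were not taken as pairs: same-numbered deviations correlated at 0.18 to 0.44 in 6 of 8 pairs but at 0.08 and -0.01 in the others, and 2 of 8 exercised animals correlated best with their own number. Same-numbered animals shared a batch, except number 6. With a replicate block, 3528 probe sets, 3 Z-disc genes and 3 members (XIRP1 added) were called, the training by sex difference of ABRA was 0.01 and the sex difference of PDLIM3 -0.12.

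Signs turned only where no test had passed. The training by sex difference of ABRA was 0.26 in batch A and -0.47 to 0.25 when 1 array was left out, and its sex difference -0.06 to 0.23. The sex difference of XIRP1 was 0.21 in batch A, 0.15 with the batch block and -0.31 to 0.04 with 1 array left out. Correlations with 1 array left out ran from -0.04 to 0.58 (ANKRD1 and XIRP1) and -0.56 to 0.43 (PDLIM3 and XIRP1) in exercised animals. In sedentary animals they ran from -0.07 to 0.58 (ABRA and PDLIM3), -0.16 to 0.11 (ANKRD1 and XIRP1) and -0.11 to 0.69 (PDLIM3 and XIRP1). With the mean of both ANKRD1 probe sets, ANKRD1 and PDLIM3 had -0.08 in sedentary animals. Calls of list genes held in 25 of 25 alternatives for LIMS1, 24 of 24 for MYOZ1, 22 of 24 for CTNND1 and 13 of 25 for MCL1.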
